A study of Arvicanthis niloticus with 59 samples.

Results

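The Gata transcription factors are a family of 6 genes, Gata1 to Gata6, among the 18970 genes measured. A gene was taken as a member where its symbol stood in the gene column of the tables, and all 6 were found there. The libraries, 59 in all, came from Arvicanthis niloticus, the Nile grass rat, a rodent active by day, and their RNA was sampled at 47 sites in 22 organs of 4 animals named T3F, T173F, T426 and T424. All tissue was healthy and received no treatment. The labels state no genotype, strain, age or sex. The series is thus a map of organs, with each site set against other sites, and most sites rest on a single library of a single animal. Libraries of 2 animals were present at 10 sites. Total expected counts, the read counts that the counting tool assigns to genes, ran from 12693819 to 41309569 in the 38 libraries of T3F. They ran from 1573234 to 23901468 in the 12 of T173F and from 1691561 to 3827321 in the 8 of T426, and were 678819 in the testis library of T424.

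GATA factors are zinc finger proteins that bind DNA at the letters GATA and switch on genes of particular cell lineages. Gata1, Gata2 and Gata3 are known from blood: Gata1 drives red cell, platelet, mast cell and eosinophil formation, Gata2 maintains blood stem cells and is also a factor of endothelium, and Gata3 directs T cells. Gata4, Gata5 and Gata6 are known from heart, gut lining and gonads, where they work beside factors such as Nkx2-5, Hnf4a and Nr5a1 and bind the cofactors Zfpm1 and Zfpm2.

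Several libraries held genes of another organ, and results that rest on them are given with and without them. The library labelled liver T3F summed to 57584 TPM over 5 alveolar epithelium genes, such as the surfactant gene Sftpc, and to 636.4 TPM over 6 hepatocyte genes, against 0.958 and 75243 TPM in liver T426. TPM is a transcript abundance scaled by transcript length and by the library's total. The library labelled lung T3F had 98837 TPM of hepatocyte genes and 8.62 TPM of alveolar genes. Each of these libraries thus had the marker genes of the other's label, so what follows gives their values by label only and not as values of liver or lung. Spermatid genes summed to 29447 TPM in retina T426, 13945 TPM in hippocampus T426 and 5741 TPM in femur T426, against 66.0 to 121.3 TPM in the T3F libraries of the same sites and 25790 TPM in testis. Hepatocyte genes summed to 14494 TPM in renal pelvis T426. In the pancreas library of T173F acinar genes summed to 1392 TPM, against 328354 TPM in pancreas T3F. Acinar genes also summed to 73354 TPM in sciatic nerve T426, 12305 TPM in muscle T3F and 10355 TPM in colon, and alveolar genes to 5395 TPM in colon, 5524 TPM in rectum and 3737 TPM in femur T3F. These libraries stayed in the tests, apart from sciatic nerve T426 in the strict set, and calls that were lost without one of them are given at the result. The adrenal library that the labels place under adipose had 15544 TPM of fat genes and 10800 TPM of adrenal cortex genes, and the one under kidney had 56.9 and 48855 TPM.

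The members differed in the organ where each was highest, and some organs held several members at high levels. By TPM Gata6 was the most abundant of the 6 in 20 of the 59 libraries, Gata3 in 16, Gata2 in 13, Gata4 in 6, Gata1 in 4 and Gata5 in 0. That ranking depends on the transcript lengths used. By expected counts Gata5 was highest in jejunum, at 4478 against 1226 for Gata6, and in ileum, at 1793 against 866. The highest levels were 406.0 TPM for Gata6 in the Harderian gland, 309.9 TPM for Gata3 in thymus, 226.2 TPM for Gata1 in bone marrow, 110.2 TPM for Gata4 in glandular stomach, 78.7 TPM for Gata2 in bladder and 21.6 TPM for Gata5 in jejunum. By counts Gata2 was the most widespread, with at least 3 counts in 57 libraries, and Gata5 the most restricted, with no count in 30. By TPM, Gata2 and Gata6 reached 1 TPM in 42 and 41 libraries. At 10 TPM Gata6 was the broader, with 23 libraries against 9 for Gata2. Depth sets what can be seen: a member with no count in a shallow library was not detectable there, which does not show that it was absent.

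**Figure D1:**
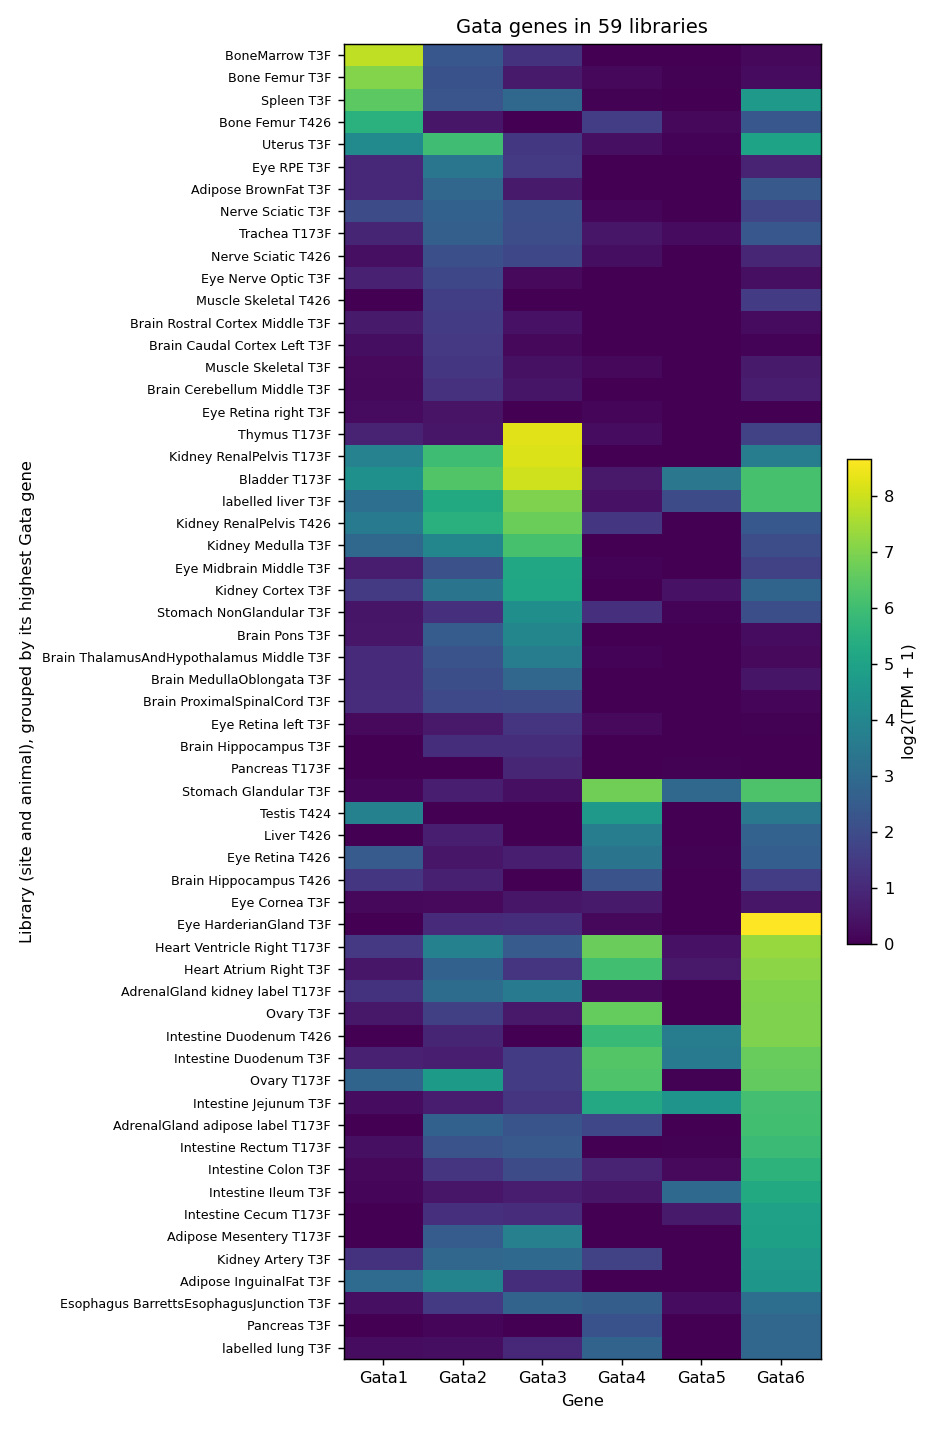
Level of each Gata gene (columns) in each of the 59 libraries (lines), as log2(TPM + 1) on the colour scale. Libraries are grouped by the Gata gene of highest TPM. Gata6 leads the longest group, of 20 libraries, with the Harderian gland at 406.0 TPM.

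Gata1, the master regulator of red cell and platelet precursors (ENSMUSG00000031162 in the tables), was found at its highest in blood-forming tissue. It had 226.2 TPM in bone marrow, 132.7 TPM in femur T3F, 45.3 TPM in femur T426 and 87.6 TPM in spleen. All other libraries lay below 20 TPM. Bladder had 19.3 TPM, uterus 16.8 TPM, renal pelvis 13.4 TPM in T173F and 10.5 TPM in T426, and testis 12.9 TPM, the last from 8 counts. The remaining 50 libraries lay between 0 and 8.0 TPM, and 10 of them had no count. Marrow thus stood first, and spleen lay within the range of the femur libraries, so these sites could not be ordered.

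Femur was the replicated site that could be tested. Gata1 had 132.7 and 45.3 TPM in femur T3F and T426, against a range of 0 to 13.4 TPM in the libraries of the other 9 replicated sites, with no overlap. Against the mean of those 9 sites its log2 fold change was 7.65 ± 0.99 (SE), adjusted p = 0.000178 by edgeR's quasi-likelihood test. The share of all genes without such overlap was not counted. Differences were called at an adjusted p under 0.05 and at least 1 log2 unit, and 1 of the 6 members was called at femur, where 10.2% of all genes were. In bulk tissue, fewer cells of a type and less RNA per cell cannot be told apart, here and in what follows. Gata1 was kept in both smaller sets of libraries. A reduced set, without the libraries labelled liver T3F and pancreas T173F, gave 8.58 log2 units. A strict set, which also leaves out T426 at femur, hippocampus, renal pelvis, retina and sciatic nerve, gave 9.31.

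Genes that work with Gata1 in blood cells rose at femur with it. Of 9 blood partners 7 were higher and 0 lower, with a median log2 fold change of 5.0, against 0.03 over all genes tested. Klf1, the red cell factor that shares many Gata1 target genes, rose by 8.90 ± 0.56 (SE). Tal1 and Lyl1, partners of the same DNA-bound complex, rose by 5.0 ± 0.54 and 5.53 ± 0.60. Gfi1b, a repressor of red cell and platelet precursors, rose by 10.47 ± 1.07. The complex members Lmo2 and Ldb1 were not called, at 1.41 and 0.62. The Gata1 cofactor Zfpm1 was higher by 2.57 ± 0.72 (adjusted p = 0.0337), and Zfpm2 was not called (−2.97, adjusted p = 0.0824). Of the red cell markers 8 of 9 were higher and of the platelet lineage markers 6 of 6. Of the mast cell markers 4 of 9 were higher, among them the mast cell proteases Cma1 and Cpa3. Of the eosinophil markers 4 of 4 were higher, led by the granule protein genes Epx (11.11 ± 0.57) and Prg2 (14.47 ± 0.62). Markers of tissue around the bone were higher as well, 7 of 7 of skeletal muscle fibre and 3 of 3 of fat. The muscle fibre markers summed to 16618 TPM in femur T3F and 2531 TPM in T426, against 861.9 TPM in marrow and 124.6 TPM in spleen, and their part in the femur values was not tested. Across the 4 blood-forming libraries the summed level of the 9 red cell markers was 3037 TPM in marrow, 1666 and 611.0 TPM in femur T3F and T426, and 1060 TPM in spleen, the same order as Gata1. The platelet lineage, eosinophil and mast cell markers did not share that order. In marrow, femur T3F, femur T426 and spleen the platelet lineage markers summed to 7808, 5189, 4495 and 7544 TPM. In the same libraries the eosinophil markers summed to 3298, 1766, 2173 and 80.8 TPM and the mast cell markers to 769.3, 484.9, 411.5 and 64.3 TPM.

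Outside blood-forming tissue, Gata1 stood in a narrow ratio to Gata2 where Gata2 was abundant. In the 6 libraries outside marrow, femur and spleen that had Gata2 at 20 TPM or more, Gata1 had between 2.86 and 3.57 expected counts for each 100 of Gata2. In the 4 blood-forming libraries it had 301.0 to 1398. Libraries with little Gata2 did not keep that ratio: testis had 8 counts of Gata1 and 0 of Gata2, retina T426 7 and 5, and hippocampus T426 2 and 6.68. Some libraries with many Gata2 counts but under 20 TPM lay outside it as well. Retinal pigment epithelium had 1.41, inguinal fat 6.87 and kidney medulla 5.96 Gata1 counts per 100 of Gata2. Over the 55 other libraries the levels of both genes as log2(TPM + 1) had a Pearson's r of 0.74, as a description. Expected counts need not be whole, since the tool shares reads between similar transcripts: Gata1 had a non-whole count in 22 libraries and Gata2 in 48, against 4 to 12 for the other members. Whole counts, libraries without a count included, made up 54.8% over all genes, 62.7% for Gata1 and 18.6% for Gata2. Whether reads shared between the 2 genes make up the Gata1 counts of bladder, uterus and renal pelvis was not tested. The red cell markers summed to 375.3 TPM in renal pelvis T173F and 868.1 TPM in T426. In each of these libraries 5 of the 9 reached 1 TPM, against all 9 in marrow, femur and spleen. The sums were 284.4 TPM in kidney medulla, 160.4 TPM in kidney cortex, 24.8 TPM in bladder and 50.5 TPM in uterus. The source of these sums was not tested.

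**Figure D2:**
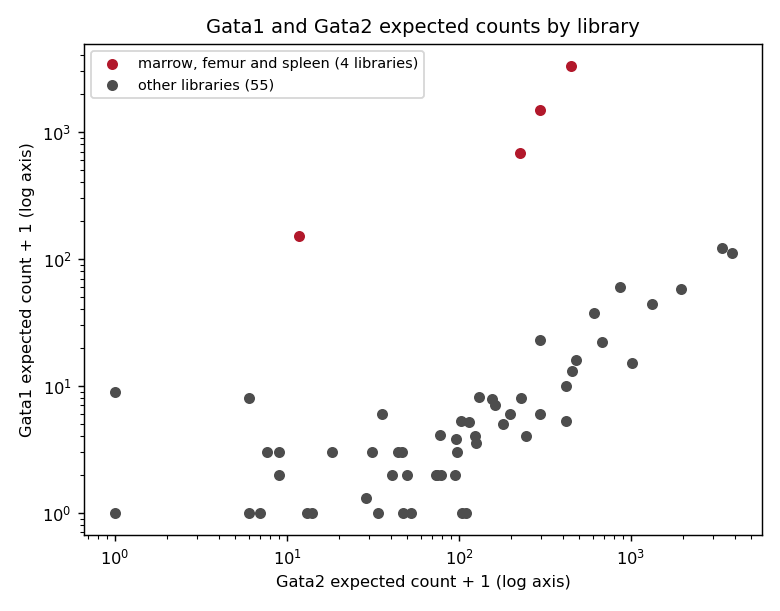
Expected counts of Gata1 (vertical) and Gata2 (horizontal), each plus 1 on a log axis, 1 point per library. The 4 libraries of marrow, femur and spleen stand apart at the top, at 151 Gata1 counts or more. Among the other 55, the 6 with Gata2 at 20 TPM or more had 2.86 to 3.57 Gata1 counts per 100 of Gata2. Retinal pigment epithelium, at 1011 Gata2 counts, and inguinal fat, at 865, lay outside that range.

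Gata2, a factor of blood stem cells and of endothelium (ENSMUSG00000015053), was highest in the urinary and female reproductive tracts. It had 78.7 TPM in bladder, 63.1 TPM in uterus, 61.3 TPM in renal pelvis T173F and 44.3 TPM in renal pelvis T426. The library labelled liver T3F had 37.1 TPM. The ovary libraries differed, with 25.5 TPM in T173F and 2.10 TPM in T3F. Smooth muscle markers summed to 4567 TPM in ovary T173F and 827.8 TPM in ovary T3F, and their part in the Gata2 values was not tested. Kidney medulla (14.8 TPM), inguinal fat (14.2 TPM) and right ventricle (13.1 TPM) followed, and all libraries not yet named lay between 0 and 9.62 TPM. Bone marrow had 4.16 TPM, within that range. Uterus lay just above the renal pelvis range of 44.3 to 61.3 TPM and has 1 library, so their order was not resolved.

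At renal pelvis Gata2 and Gata3 were called, 2 of the 6 members, where 6.55% of all genes were. Gata2 was higher by 4.03 ± 0.65 log2 units (SE) against the 9 remaining replicated sites, adjusted p = 0.00139. Gata3, which in mice builds the ureter and collecting duct system, was higher by 6.62 ± 0.87, adjusted p = 0.000296. Gata3 had 295.7 TPM in renal pelvis T173F and 104.9 TPM in T426, and at the other 9 sites the library labelled liver T3F alone came between them, at 126.7 TPM; all others had 3.23 TPM or less. Markers of urothelium, the lining of the urinary tract, were higher in 3 of 6 cases, led by the surface antigen gene Psca (7.81 ± 0.44) and the uroplakin genes Upk3a (7.24 ± 1.14) and Upk2 (5.82 ± 1.35). Of the collecting duct and distal nephron markers the water channel genes Aqp2 (15.73 ± 1.19) and Aqp3 (8.88 ± 0.89) rose most clearly beside the salt transporter gene Slc12a1 (13.71 ± 0.94). None of the 5 endothelium markers was called there (log2 fold changes from −2.46 for Vwf to 2.21 for Tek). The hepatocyte genes of renal pelvis T426 stood at 14494 TPM there and at 7.15 TPM in T173F. Both Gata calls were kept when either renal pelvis library was left out, with an adjusted p of 0.0294 at most for Gata2 and 0.0121 for Gata3.

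Gata3, the T cell factor of the family (ENSMUSG00000015619), had 309.9 TPM in thymus, where 10 T cell and thymocyte markers summed to 18775 TPM. Next came renal pelvis with 295.7 and 104.9 TPM and bladder with 264.9 TPM, which lies inside that range. The renal pelvis libraries came from T173F and T426 and those of kidney medulla and cortex from T3F. Site and animal cannot be told apart between them. Within the kidney Gata3 was lower in medulla than in the pelvis, at 70.0 TPM, and lower still in cortex, at 33.2 TPM, each from 1 library. Kidney collecting duct and distal nephron markers did not share that order: they summed to 18478 TPM in medulla, 9755 and 9597 TPM in the renal pelvis libraries and 5252 TPM in cortex. Nonglandular stomach, whose lining is a stratified epithelium, had 18.8 TPM, against 0.29 TPM in glandular stomach. Midbrain had 35.5 TPM. The mesenteric fat library had 12.7 TPM. Spleen, a store of mature T cells, had only 6.54 TPM, with T cell markers at 596.5 TPM.

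Marrow was then set against spleen and thymus for the blood members. Gata1 had 226.2 TPM in marrow and 132.7 and 45.3 TPM in femur, against 87.6 TPM in spleen and 0.80 TPM in thymus. Its log2 fold change was 2.60 ± 1.60 (SE), adjusted p = 0.593. Gata3 had 1.43 TPM in marrow and 0.53 and 0 TPM in femur, against 6.54 TPM in spleen and 309.9 TPM in thymus, so the groups did not overlap. Such separation was not counted over all genes. The log2 fold change of Gata3 was −6.34 ± 1.64, adjusted p = 0.413. None of the 6 members was called by edgeR, and neither was any of the 14925 genes tested (0.0%), with 1430 genes at an unadjusted p under 0.05. DESeq2 called 723 genes, among them Gata3 at −6.44 (adjusted p = 0.000807). Gata2 and Gata6 were not called either (1.18 and −0.95), and Gata4 and Gata5 did not pass the filter on low counts. Tcf7 and Bcl11b, T cell factors that act beside Gata3, reached 1993 and 719.8 TPM in thymus. With a single thymus and a single spleen library, their difference from each other sets the spread on that side.

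In the nervous system Gata2 and Gata3 were higher in midbrain, pons, medulla oblongata and spinal cord than in the telencephalon, but not in cerebellum. Gata3 had 35.5 TPM in midbrain, 14.9 TPM in pons, 6.29 TPM in medulla oblongata and 2.97 TPM in spinal cord, against 0.35 and 0.13 TPM in rostral and caudal cortex and 1.18 and 0 TPM in hippocampus T3F and T426. All 4 libraries of midbrain, pons, medulla and cord lay above all 4 of the telencephalon. Gata2 had 3.43, 4.69, 3.20 and 2.74 TPM in midbrain, pons, medulla and spinal cord, against 1.82 and 1.71 TPM in the cortex libraries and 1.17 and 0.70 TPM in hippocampus T3F and T426, also without overlap. What share of all genes separated these libraries in the same way was not counted. Cerebellum, part of the hindbrain, was in neither group. It had 0.41 TPM of Gata3 and 1.35 TPM of Gata2, both within the range of the telencephalon. Gata2 and Gata3 are known as factors that set inhibitory and serotonergic neuron identity in mouse midbrain, hindbrain and cord.

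**Figure D3:**
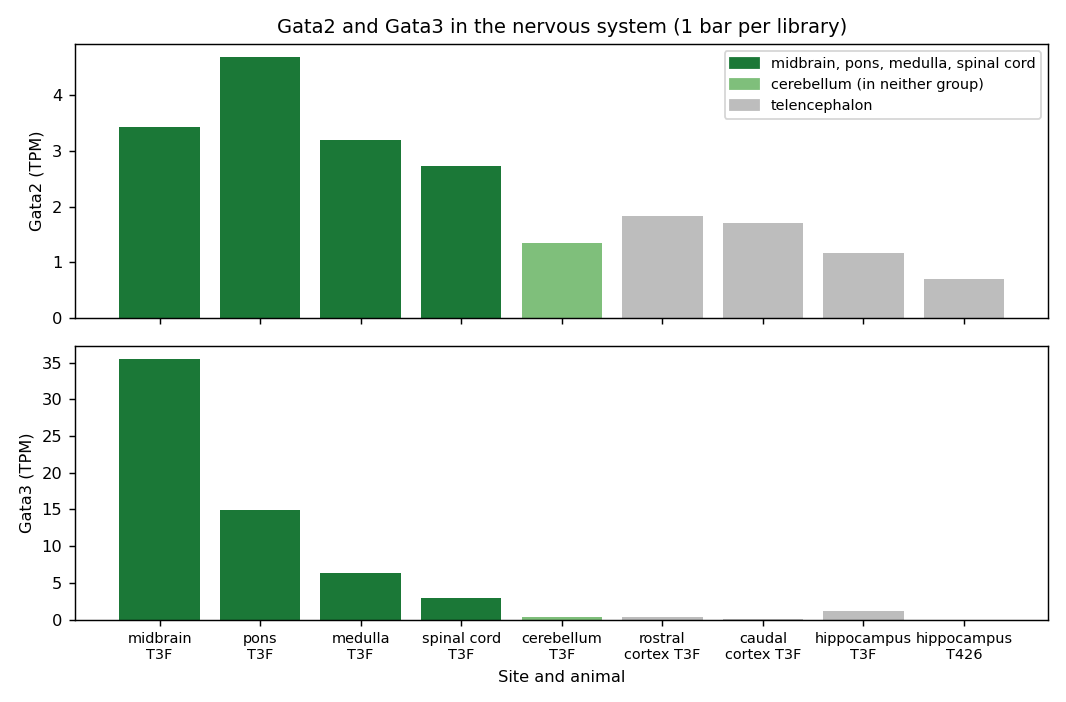
TPM of Gata2 (top) and Gata3 (bottom) in libraries of the nervous system, 1 bar per library, with midbrain, pons, medulla and spinal cord at the left, cerebellum next and the telencephalon at the right. Every library of midbrain, pons, medulla and cord exceeds every library of the telencephalon for both genes, with Gata3 at 35.5 TPM in midbrain, whereas cerebellum, at 0.41 TPM of Gata3 and 1.35 TPM of Gata2, does not.

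Both genes were called in midbrain, pons, medulla and spinal cord against telencephalon, where 9.25% of all genes were. Gata3 was higher by 4.85 ± 1.0 log2 units (SE), adjusted p = 0.0124, and Gata2 by 1.33 ± 0.32, adjusted p = 0.0231. With cerebellum added to the first group, a choice made after seeing the data, the log2 fold changes were 4.54 for Gata3 (adjusted p = 0.0596) and 1.13 for Gata2 (adjusted p = 0.122), and neither was called. The other 4 members did not pass the filter on low counts. Thalamus and hypothalamus, outside this comparison, had 11.7 TPM of Gata3 and 3.68 TPM of Gata2. Of the 9 genes listed for midbrain and hindbrain neurons 5 were tested. Lhx1 and Lmx1b, homeobox factors of hindbrain and cord neurons, rose by 5.97 ± 0.73 and 8.10 ± 1.40. Tal2, a midbrain partner of Gata2 in mice, fell by 3.19. Tph2, the serotonin-synthesis enzyme, was not called (2.83, adjusted p = 0.0971). The median of the 5 was 2.83, against 0.01 over all genes tested. Of the 8 libraries 7 came from T3F, so the p-values measure the spread between sites. Gata2 was no longer called without medulla (adjusted p = 0.0548), without pons (0.0712) or without hippocampus T3F (0.0703), and Gata3 stayed called in each of the 8 repeats.

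Gata4, a factor of heart muscle, foregut, gonad and proximal intestine (ENSMUSG00000021944), had 7 libraries at 50 TPM or more. Glandular stomach had 110.2 TPM, right ventricle 101.6 TPM, ovary 97.2 TPM in T3F and 76.9 TPM in T173F, duodenum 80.1 TPM in T3F and 57.5 TPM in T426, and right atrium 65.8 TPM. The ranges of ovary, duodenum and heart overlap, so these sites could not be ordered. Jejunum had 36.6 TPM and testis 24.0 TPM. Liver T426 had 11.4 TPM and the library labelled lung T3F, with its hepatocyte genes, 5.72 TPM, against 0.33 TPM in the library labelled liver T3F. Gata4 was also counted in the 3 libraries of T426 that held spermatid genes, at 9.17 TPM in retina, 3.62 TPM in hippocampus and 1.99 TPM in femur. The T3F libraries of those sites had 0.17 and 0.11 TPM in the left and right retina, 0 TPM in hippocampus and 0.13 TPM in femur. The part of the spermatid genes' source in these values was not tested.

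Gata6, the member with the broadest range in viscera (ENSMUSG00000005836), stood alone in the Harderian gland, the lipid-secreting gland of the rodent orbit. There it had 406.0 TPM from 4635 expected counts and made up 99.4% of the summed TPM of the 6 genes. Right ventricle had 158.4 TPM and right atrium 141.9 TPM. The adrenal libraries had 128.8 TPM under the kidney label and 64.9 TPM under the adipose label, ovary 125.6 TPM in T3F and 94.3 TPM in T173F, and duodenum 125.5 TPM in T426 and 99.2 TPM in T3F. Glandular stomach had 74.2 TPM, bladder 70.0 TPM, the library labelled liver T3F 69.9 TPM, uterus 32.0 TPM and spleen 24.6 TPM. The neighbouring eye libraries were low, with 0.83 TPM in the retinal pigment epithelium and 0.45 TPM in cornea, and the retina of T3F had 0.04 TPM at the left and 0 TPM at the right. Retina T426, with its spermatid genes, had 5.06 TPM from 15 counts. Trachea, which also held alveolar and airway secretory genes, had 4.12 TPM.

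Gata5, a factor of gut epithelium and developing heart (ENSMUSG00000015627), reached 1 TPM in 7 libraries. Jejunum had 21.6 TPM, duodenum 11.7 TPM in T426 and 10.8 TPM in T3F, bladder 9.95 TPM, ileum 6.81 TPM, glandular stomach 6.45 TPM and the library labelled liver T3F 3.03 TPM. All other libraries lay below 1 TPM. TPM divides by transcript length, and the tables imply that the counted Gata5 transcript is 6.37 times as long as that of Gata4, while those of Gata1 and Gata3 are 0.288 and 0.292 times as long. The 21.6 TPM of jejunum therefore rest on 4478 expected counts, more than the 3286 behind the 226.2 TPM of Gata1 in marrow. How complete these transcript models are was not tested.

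In the intestine the 3 members had different reach. Gata4 had 80.1 and 57.5 TPM in duodenum and 36.6 TPM in jejunum but 0.44 TPM in ileum, against 0, 0.83 and 0 TPM in cecum, colon and rectum. Gata5 had 10.8 and 11.7 TPM in duodenum, 21.6 TPM in jejunum and 6.81 TPM in ileum, against 0.53, 0.18 and 0.04 TPM in cecum, colon and rectum. Gata6 had 99.2, 125.5, 66.4 and 37.0 TPM in the small intestine libraries, against 30.3, 47.6 and 59.4 TPM in cecum, colon and rectum. For Gata5 the small and large intestine did not overlap, and the share of all genes without overlap was not counted. For Gata4 the ileum, at 18 counts, lay below the colon, at 19 counts, and for Gata6 the ileum lay inside the large intestine range. Gastric gland genes summed to 2018 TPM in colon, 563.8 TPM in rectum, 1374 TPM in duodenum T3F and 25.0 TPM in ileum. Their part in the Gata4 values was not tested.

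**Figure D4:**
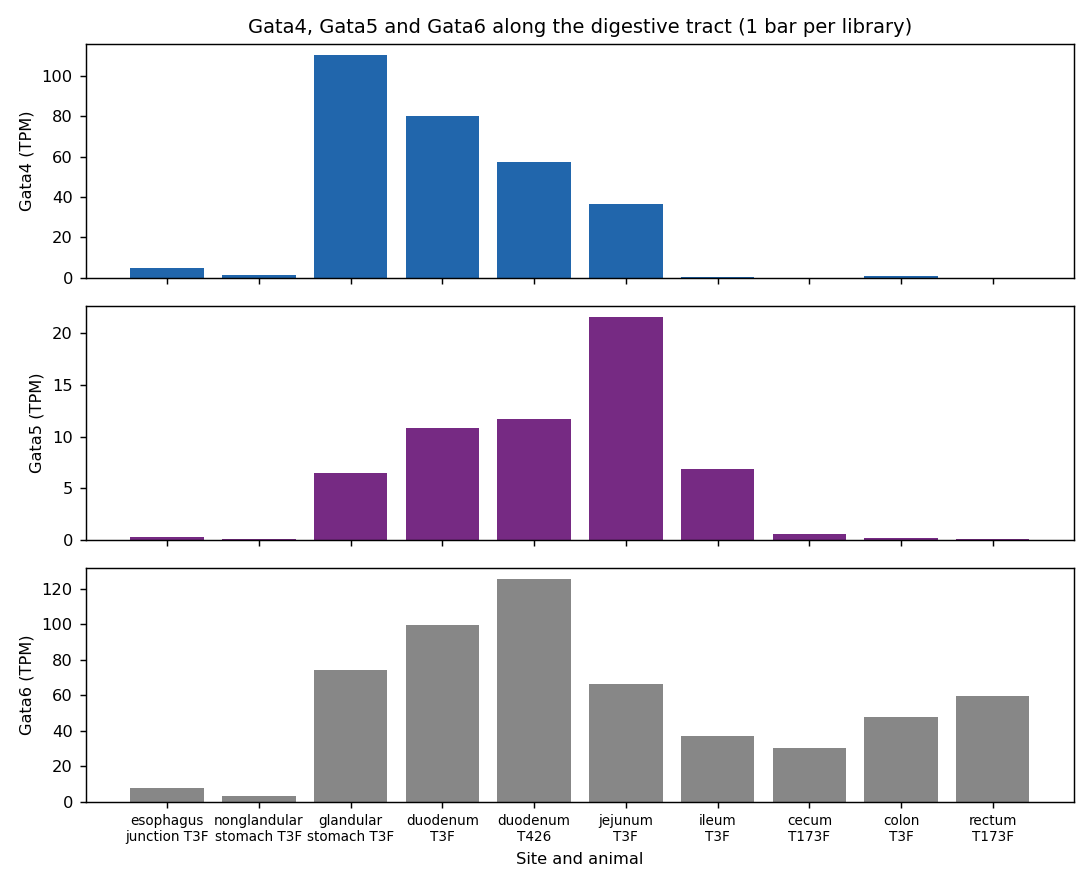
TPM of Gata4, Gata5 and Gata6 (top to bottom) along the digestive tract from esophagus to rectum, 1 bar per library. Gata4 stands at 36.6 TPM in jejunum and 0.44 TPM in ileum, Gata5 at 6.81 TPM in ileum and 0.53 TPM in cecum, and Gata6 at 30.3 TPM or more in all 7 intestine libraries.

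All 3 were called in small against large intestine, where 15.4% of all genes were. The log2 fold change was 6.36 ± 0.93 (SE) for Gata5, adjusted p = 0.0076, and 1.65 ± 0.38 for Gata6, adjusted p = 0.0252. For Gata4 it was 7.76 ± 1.79, adjusted p = 0.0256. Gata2 and Gata3 were not called (−0.95 and −0.44), and Gata1 did not pass the filter on low counts. Of 6 gut partners, factors that act with these 3 in gut epithelium, 0 were higher and 2 lower, among them Foxa2 by −2.20 ± 0.34, while Hnf4a (0.53) and Cdx2 (0.38) were not called; the median of the 6 was −0.27, against −0.03 over all genes tested. The cofactor Zfpm1 was higher by 3.97 log2 units. Of the enterocyte markers 5 of 10 were higher, led by the digestive enzyme gene Sis (7.27 ± 1.07) and the lipid carriers Apoa1 (6.74 ± 1.20) and Fabp1 (8.31 ± 1.73). Smooth muscle markers summed to 419.6 to 707.3 TPM in the small intestine libraries, against 2779 to 9093 TPM in the large intestine, and their part in the Gata differences was not tested.

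Animal and gut part are entangled in that comparison, as 3 of the 4 small intestine libraries came from T3F and 2 of the 3 large intestine libraries from T173F. With the animal as a replicate block the log2 fold changes were 6.42 for Gata4, 7.13 for Gata5 and 1.43 for Gata6, and 0 of the 3 were called (adjusted p = 0.370, 0.177 and 0.256), as were only 4 of all genes. Gata5 stayed called without each of the 7 libraries. Gata4 was not called without duodenum T3F (adjusted p = 0.0533), duodenum T426 (0.0575), jejunum (0.0573), colon (0.0588) or rectum (0.0940), and Gata6 without duodenum T3F (0.0613), jejunum (0.0537), colon (0.0643) or rectum (0.0691).

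Duodenum was set against the 9 remaining replicated sites as well, and Gata4, Gata5 and Gata6 were called, with 8.96% of all genes. Gata5 was higher by 9.94 ± 1.0 log2 units (SE), adjusted p = 6.09e-05, and its 2 libraries, at 10.8 and 11.7 TPM, lay above all others in that test, of which the library labelled liver T3F came next at 3.03 TPM. Gata4 was higher by 5.05 ± 1.29, adjusted p = 0.0219, and Gata6 by 4.48 ± 1.08, adjusted p = 0.0152. Ovary overlapped with duodenum for both, at 76.9 and 97.2 TPM of Gata4 and 94.3 and 125.6 TPM of Gata6. Here 3 of the 6 gut partners rose as well, among them Cdx2 (12.24 ± 1.57) and Hnf4a (4.80 ± 1.18), with a list median of 4.13 against −0.13 over all genes tested. In the strict set the values were 7.57 for Gata4, 11.93 for Gata5 and 6.38 for Gata6, all called. Gata4 was not called by DESeq2 (adjusted p = 0.0519), nor by edgeR without duodenum T3F (0.210), duodenum T426 (0.0993), muscle T3F (0.0513), muscle T426 (0.0506), sciatic nerve T3F (0.0545) or ovary T173F (0.0606). Gata6 was not called without duodenum T3F (0.116) or T426 (0.144).

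In the heart Gata4 and Gata6 were abundant and low in skeletal muscle. Gata4 had 65.8 TPM in right atrium and 101.6 TPM in right ventricle, against 0.13 and 0 TPM in muscle T3F and T426. Gata6 had 141.9 and 158.4 TPM in atrium and ventricle, against 0.55 and 1.92 TPM in the muscle libraries. Gata5 had 0.51 and 0.35 TPM in the heart libraries, against 0.01 and 0 TPM in muscle. For each of the 3 the heart libraries lay above the muscle libraries. How many of all genes did so was not counted, and Gata5 lay below 1 TPM in all of these libraries. Heart tissue was clear from its markers, 8 cardiomyocyte genes summing to 232609 TPM in atrium and 42243 TPM in ventricle.

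All 3 were called in heart against skeletal muscle, where 8.31% of all genes were. The log2 fold change was 8.63 ± 0.54 (SE) for Gata4 and 6.81 ± 0.47 for Gata6, with an adjusted p of 0.0047 for each. For Gata5 it was 5.24 ± 1.05, adjusted p = 0.0434. Gata2 had 5.53 and 13.1 TPM in atrium and ventricle, against 1.61 and 2.02 TPM in muscle, and was not called by edgeR (1.69 ± 0.45, adjusted p = 0.0762) but was by DESeq2 (1.65, adjusted p = 0.0379). Of the 5 endothelium markers 2 were higher, and their part in the Gata2 values was not tested. Of the 5 cardiac partners 4 were higher and 1 lower, with a median of 9.10 against 0.12 over all genes tested. Nkx2-5, the homeobox partner of Gata4 at heart genes, rose by 12.15 ± 0.98, the T-box factor Tbx20 by 13.20 ± 0.84 and the basic helix-loop-helix factor Hand2 by 9.10 ± 0.85, while Mef2c, shared by both muscles, fell by 2.40. The cofactor Zfpm2 was higher by 4.24 ± 0.40. Gata4 and Gata6 stayed called without each of the 4 libraries, whereas Gata5 did not without atrium (adjusted p = 0.103), ventricle (0.0561), muscle T3F (0.223) or muscle T426 (0.155).

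Adrenal gland and ovary, both steroid-producing organs, were compared for Gata4 and Gata6. Gata4 had 0.16 and 2.60 TPM in the adrenal libraries under the kidney and adipose labels, against 97.2 and 76.9 TPM in ovary T3F and T173F. Gata6 had 128.8 and 64.9 TPM in the adrenal libraries, against 125.6 and 94.3 TPM in ovary. Gata4 therefore did not overlap between the organs and Gata6 did. How many of all genes did not overlap was not counted. With the adrenal libraries of T173F summed, the adrenal group was 1 sample against 2 ovary libraries, one of them of the same animal, and its spread is assumed to be that of ovary. The log2 fold change was −5.87 ± 0.68 (SE) for Gata4, adjusted p = 0.333, and 0.18 ± 0.50 for Gata6. None of the 6 members and 0 of 15698 genes (0.0%) were called by edgeR, with 1353 genes at an unadjusted p under 0.05. DESeq2 called 796 genes, among them Gata4 at −5.85 (adjusted p = 1.6e-10), a p that rests on that 1 adrenal sample. With the adrenal library of the kidney label alone Gata4 stood at −8.77 and with that of the adipose label alone at −4.59, neither called by edgeR (adjusted p = 0.303 and 0.253). The nuclear receptors Nr5a1 and Nr0b1, which act in both organs, had 345.2 and 196.9 TPM in the adrenal library under the kidney label and 68.1 and 41.3 TPM in that under the adipose label, against 148.0 and 172.6 TPM in ovary T3F and 79.4 and 155.5 TPM in ovary T173F. Both genes overlapped between the organs.

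Ovary itself gave no Gata call in the test of each site, where 3.68% of all genes were called. Gata4 stood at 4.26 ± 1.32 log2 units (SE), adjusted p = 0.106, and Gata6 at 3.28 ± 1.14, adjusted p = 0.161. Both were called in the strict set, at 6.78 and 5.17 (adjusted p = 0.000856 and 0.00116). With the animal as a replicate block Gata4 was called at 8.44 (adjusted p = 0.0083). Gata4 was also called without liver T426 (0.0493) or pancreas T173F (0.0433), and Gata6 without retina T426 (0.0376) or pancreas T173F (0.0419). The ovary partners Foxl2 (9.93 ± 0.74), Nr5a1 (8.70 ± 1.19), Nr0b1 (7.42 ± 1.11) and Wt1 (5.82 ± 1.17) were higher, 4 of 6, with a list median of 6.62 against 0.05 over all genes tested. Testis had 24.0 TPM of Gata4 from 51 counts and 9.98 TPM of Gata6 from 12.

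The ratio of Gata6 to Gata4 was taken on TPM where both reached 3 TPM, as a description without a test between organs. This ratio was 1.23 and 1.29 in the ovary libraries, 1.24 and 2.18 in the duodenum libraries and 1.82 in jejunum, and 2.16 and 1.56 in atrium and ventricle. Esophagus junction had 1.57 and pancreas T3F 1.80. Gata4 was the more abundant in glandular stomach (0.673), testis (0.415), liver T426 (0.488) and retina T426 (0.552). In testis, liver T426 and retina T426 these ratios rest on only 12, 13 and 15 Gata6 counts. The library labelled lung T3F, which like liver T426 held hepatocyte genes, had 1.09. The ranges of ovary, duodenum and heart lay between 1.23 and 2.18, and duodenum overlapped with both others, so these sites could not be ordered.

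The library labelled liver T3F carried calls of its own. Against the mean of the 9 remaining sites, the fit over both libraries with the liver label called 3 of the 6 members higher, where 8.56% of all genes were called. These were Gata2 (2.59 ± 0.70 log2 units, SE), Gata3 (4.97 ± 0.89) and Gata5 (5.93 ± 1.04). The library labelled liver T3F had 37.1, 126.7 and 3.03 TPM of these genes, and liver T426 had 0.67, 0 and 0 TPM. In the reduced set, which leaves that T3F library out, the log2 fold changes were −0.64, −5.52 and −4.19, and none was called. In the strict set Gata4 (5.78) and Gata6 (2.65) were called in liver T426 instead. That T3F library also had the highest sum of endothelium markers of all 59, at 5335 TPM.

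Over all 10 replicated sites 4 of the 6 members differed in the joint test, where 41.4% of all genes did. These were Gata5 (adjusted p = 0.00175), Gata3 (0.00347), Gata1 (0.00602) and Gata2 (0.00782) by edgeR. Gata6 (0.0743) and Gata4 (0.106) were not called. Both were called by DESeq2 (0.00913 and 0.0280) and in the strict set (0.000634 and 0.000477), Gata6 in the reduced set (0.0454), and Gata4 with the animal as a replicate block (0.00691). Gata6 was also called without femur T426 (0.0436), retina T426 (0.0273), pancreas T3F (0.0470) or pancreas T173F (0.0338). At the sites not yet described no member was called: the share of all genes called was 15.0% in hippocampus, 21.1% in retina, 7.19% in skeletal muscle, 5.06% in sciatic nerve and 13.0% in pancreas.

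**Figure D5:**
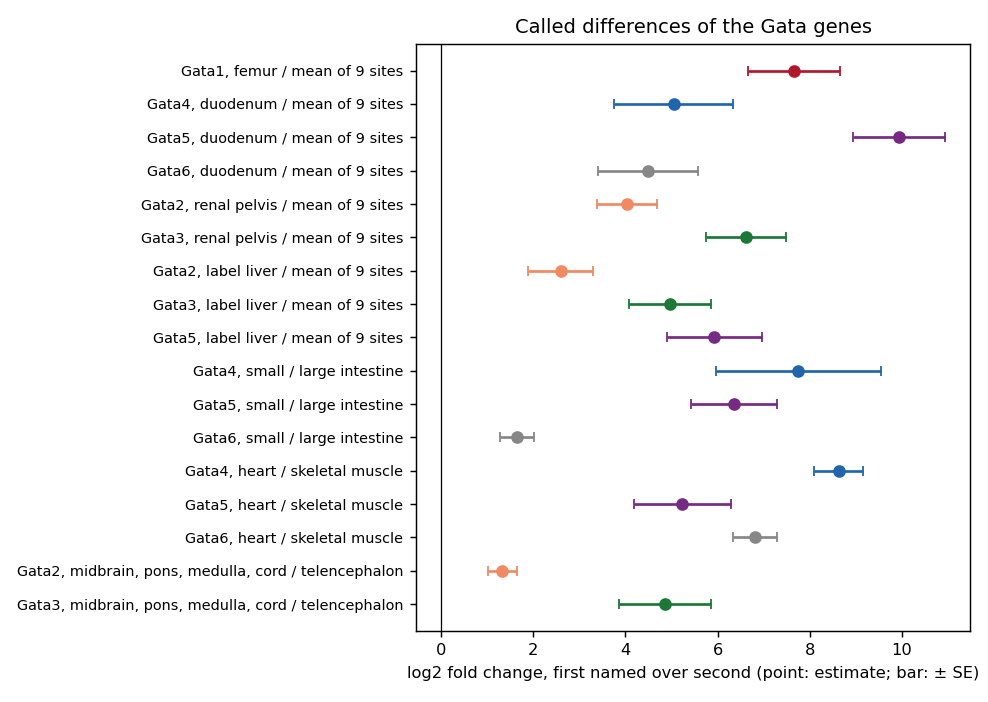
Log2 fold changes (points) with standard errors (bars) of every called member and comparison, coloured by gene; the first tissue named is over the second. The 3 points at the label liver rest on the library labelled liver T3F. In the reduced set, without it and pancreas T173F, they lie at −0.64, −5.52 and −4.19.

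Genes whose pattern over the 59 libraries was most like that of each member were listed by Pearson's r of log2(TPM + 1), as a description over libraries that share animals. For Gata1 they were Treml1, a platelet receptor (0.82), Gzmb (0.79), AB124611 (0.79), Clec4e (0.78) and Cldn13 (0.78), each highest in bone marrow. For Gata2 they were Lrrc32 (0.84), Adgrf5 (0.82), the endothelial receptor Notch4 (0.82), Grrp1 (0.82) and Ushbp1 (0.82). Gata3 had lower values, from 0.72 for 4930523C07Rik to 0.65 for Evc, with Fam65c, Dennd3 and Rbms3 between. Gata4 was nearest to the cholesterol transporter gene Npc1l1 (0.64), followed by Nr0b2 (0.63), Fkbp6, Gata6 and the cardiac troponin gene Tnnt2 (each 0.56). Gata5 was nearest to Btnl6 (0.84), Anxa13 (0.79), Ms4a10 (0.78), Tm4sf5 (0.78) and the sucrase gene Sis (0.77), all highest in jejunum or duodenum. Gata6 was nearest to Pdlim1 (0.76), the visceral mesenchyme factor Tcf21 (0.73), Ugt1a7c (0.70), Fam162b (0.69) and Rbm47 (0.68). Among the members themselves r was 0.62 for Gata2 and Gata3, 0.56 for Gata4 and Gata6, 0.48 for Gata5 and Gata6, 0.45 for Gata4 and Gata5 and 0.44 for Gata1 and Gata2, and between −0.25 and 0.25 for the other 10 pairs. Of the further genes listed for a GATA-type zinc finger, Gatad1 was not among the genes measured. Trps1, Gatad2a and Gatad2b were called in none of the 15 site and tissue comparisons by edgeR. In marrow against spleen and thymus and in adrenal gland against ovary no gene at all was called.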

How the data were processed

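Expected counts and TPM were deposited by the authors as tables of all genes and libraries; per the submitters' processing notes RSEM and Bowtie 0.12.8 were used, and the transcript reference is not given in the sources used here. The gene column pairs symbols with mouse Ensembl identifiers. No column of values was left without a library (0). For tests, expected counts were rounded and analysed with edgeR 4.0.16 in R 4.3.3 (quasi-likelihood test, TMM, filterByExpr, Benjamini-Hochberg over all genes tested), with DESeq2 1.42.0 as an alternative. The left and right retina of T3F and the adrenal libraries of T173F were summed, so an animal entered a site once. Nothing states technical replication, so p-values measure only the spread between these libraries. Alternatives were other scaling, no filter, no minimum fold, the reduced and strict sets, the left retina alone, each library left out and the animal as a replicate block. Adding cerebellum to the first group was chosen after seeing the data. Animal names in the titles give that pairing; over 7 sites of T3F and T426 the animals' differences had a median correlation of 0.14 between sites, over 0.1 in 13 of 21 site pairs. The tests were also run on simulated counts with known changes. Those counts held no differences between animals and no genes of another organ, so they cannot show how the tests behave under either. Named genes are the members, the 5 genes of highest r per member (at least 5 TPM in a library and 1 TPM in 3), and up to 4 genes per list with the smallest adjusted p; others named were chosen after their values were seen. The members and lists were chosen with earlier results of these data known. Of the listed genes 7 were not in the tables. Some listed genes enter the counts and medians of their list but are not reported here by name. No sequences or coordinates are given, as the tables name no genome.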

Additional observations from a re-analysis of the deposited data

How the results depend on the processing

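Of the 17 called differences of single members, the 3 at the label liver turned direction. Gata2 stood at −0.64 log2 units in the reduced set, −0.72 in the strict set and −0.52 to 3.54 when single libraries were left out, lowest without liver T3F. Gata3 stood at −5.52, −6.04 and −6.06 to 5.94, and Gata5 at −4.19, −3.82 and −4.21 to 6.89. Gata2 there was also lost with the animal as a replicate block (2.49, adjusted p = 0.0972) and without 9 of the other libraries left out in turn (adjusted p = 0.0523 to 0.0585). In small against large intestine 0 members were called with the replicate block in place of 3, and 1 to 3 when libraries were left out. In midbrain, pons, medulla and spinal cord against telencephalon 1 to 2 were called when libraries were left out and 0 with cerebellum in the first group, and in heart against skeletal muscle 2 to 3. In marrow against spleen and thymus and in adrenal gland against ovary DESeq2 called 1 member each in place of 0. Over the sites against the other 9, left-out libraries gave 6 to 12 calls in place of 9, and in the joint test 4 to 5. Apart from the calls named in the report, the block changed those of Gata4 at pancreas, gained at 5.69 (adjusted p = 0.0431). For heart against muscle no block could be fitted with residual degrees of freedom, and for adrenal gland against ovary no ovary library could be left out; either adrenal library alone left 0 members called. Of the 30 genes of similar pattern 16 were shared with log2(TPM + 0.1), 7 with Spearman's rho and 20 without the 8 libraries that stand apart. Alternatives that left 1 library at a site assume that it varies like the other sites. Depth limits the T426 and testis libraries most, where 3 counts or fewer separate a low level from none. The cause of these changes was not tested.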
